A study of Mus musculus with 8 samples.

Results

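The receptor for granulocyte-macrophage colony-stimulating factor (GM-CSF) and the STAT5 proteins it activates were followed through 7 genes, Csf2ra, Csf2rb, Csf2rb2, Jak2, Stat5a, Stat5b and Cish, in the open chromatin of mouse alveolar macrophages (AMs). Every accessible region (peak) overlapping 1 of these gene bodies or the 20 kb to either side was taken from all 8 peak lists of the series, and peaks that shared a base were merged. This gave 51 of the 82424 merged regions of the genome. Of the 51 regions, 48 had a peak in at least 2 libraries, 36 had a peak in all 8, and 3 had a peak in a single library. The windows of Csf2rb2 and Csf2rb overlap, as do those of Stat5b and Stat5a, so 10 regions lay in a pair of windows and were counted once.

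Open chromatin was mapped by ATAC-seq, an assay that sequences the DNA a transposase can reach, in AMs washed from the airways of adult C57BL/6J background mice by bronchoalveolar lavage and then sorted. The 4 KO libraries (replicates 1_2, 1_3, 2 and 3) came from CD11cCre+ Rxrab fl/fl mice, in which Cre driven by the CD11c promoter deletes Rxra and Rxrb, the genes of the retinoid X receptors (RXRs) of AMs, from AMs and from other cells that use this promoter. The 4 WT libraries (replicates 1_2, 1_3, 3 and 4) came from Rxrab fl/fl littermates without Cre, which carry the same floxed alleles. The labels call each library an individual biological replicate but do not say whether replicates 1_2 and 1_3 share an animal, nor give ages, so p-values measure the spread between these libraries.

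GM-CSF binds a receptor built from a specific alpha chain, encoded by Csf2ra, and a signalling beta chain, encoded by Csf2rb. Mice carry a second, closely related beta chain gene, Csf2rb2, beside Csf2rb, which serves the IL-3 receptor. The bound receptor activates the kinase JAK2, which phosphorylates STAT5A and STAT5B, and these move to the nucleus and bind DNA at TTCNNNGAA. Cish is a textbook STAT5 target whose product, CIS, feeds back on the receptor. AMs depend on GM-CSF for their development after birth and for clearing surfactant, and loss of either receptor chain causes pulmonary alveolar proteinosis.

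The STAT5 pattern TTCNNNGAA, which reads the same on both strands, lay within 100 bp of the summit (the point of highest signal) at 10 of the 48 regions seen in at least 2 libraries (20.8%). It was found at 5.98% of all 72711 such regions of the genome. With 50 bp to either side the shares were 8.33% and 3.11%. The 10 regions were at Csf2ra, Csf2rb2, Csf2rb and Cish, and no match was found around the summits at Jak2, Stat5a or Stat5b. The matches at an internal start of Csf2ra, at the starts of the beta chain genes and of Cish, and at a pair of introns of the beta chain genes, are shown here because they carry the pattern. Each is printed in the direction of its gene (mm10, read from GRCm38), with capitals marking TTCNNNGAA.
Csf2ra internal start, minus strand, chr19:61227277-61227305: acgctactgcTTCCGGGAActcaggccct
Csf2rb2 start site, minus strand, chr15:78305718-78305746: gtgtccacaaTTCTGAGAAgcaagcaaag
Csf2rb start site, plus strand, chr15:78325930-78325958: atgtccacaaTTCTGAGAAtcaggcgaag
Csf2rb2 intron, minus strand, chr15:78298802-78298830: atccccaggcTTCAGAGAAaggggaactg
Csf2rb intron, plus strand, chr15:78334595-78334623: atccccagacTTCAGAGAAaggggaactg
Cish start site, plus strand, chr9:107296654-107296683: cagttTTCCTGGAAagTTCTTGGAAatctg
The start-site matches of Csf2rb2 and Csf2rb were identical at 25 of 29 bases, with an unbroken identical run of 18. Their intronic matches were identical at 28 of 29 bases. The other pairings of a Csf2rb2 match with a Csf2rb match shared 11 to 16 bases. At Cish a pair of matches lay side by side. In the RefSeq promoter windows (GRCm38.p6, from 250 bases before to 50 after a start), which held 6 of the 7 genes in 8 windows, Cish had 2 matches and Csf2rb2 had 1. Of all 32851 windows, 8.3% had at least 1 match and 0.457% had 2 or more.

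Searched in the same windows, on either strand, were the patterns of PU.1, the macrophage lineage factor (GAGGAAGT), of AP-1 (TGANTCA), and of RXR partners, a direct repeat of AGGTCA with 1 base between and up to 2 mismatches. PU.1 was matched at 5 of the 48 regions (10.4%, against 10.7% of all regions), and AP-1 at 10 (20.8%, against 11.9%). This repeat with 1 base between was matched at 0 of the 48 regions, against 4.14% of all. Repeats with other spacings were not searched. These matches are descriptions of the sequence, and no test was made of the shares.

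**Figure D1:**
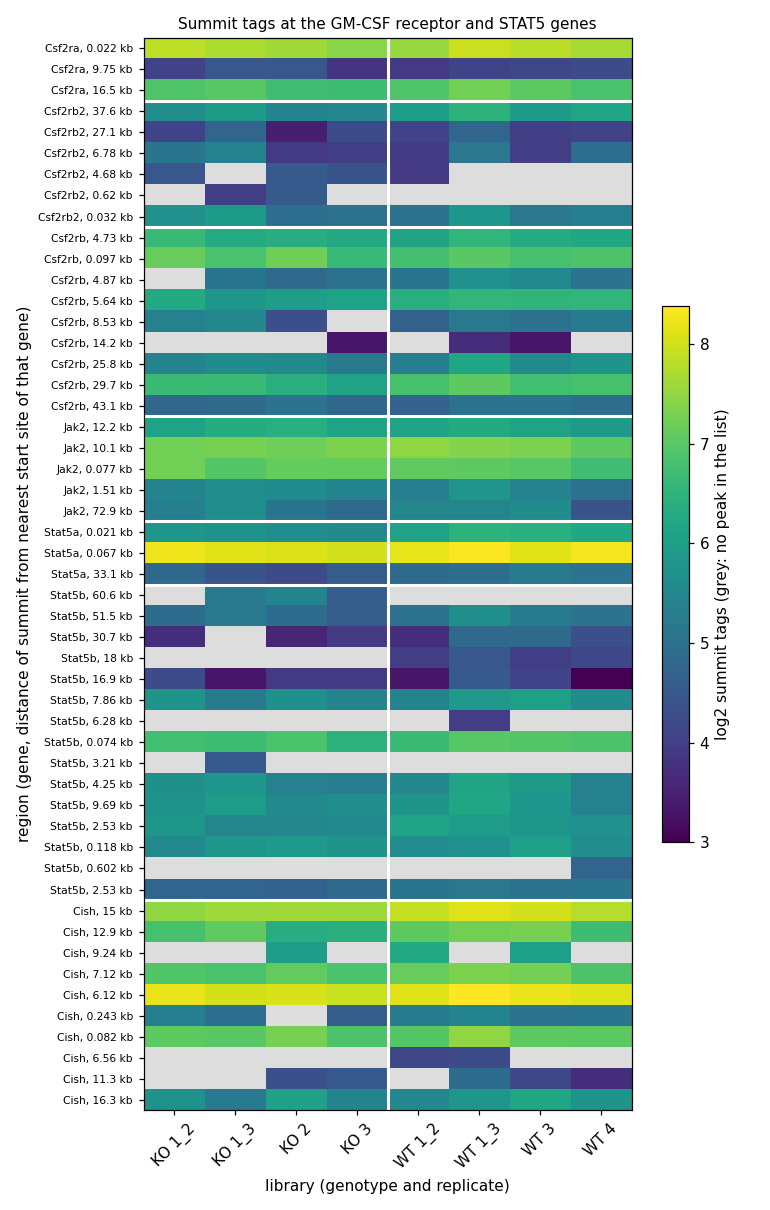
Summit tags (log2 colour scale) at the 51 regions, in rows by gene and by distance of the summit from that gene's nearest start site, in the 4 KO and 4 WT libraries. Grey marks no peak in that library's list; 36 rows are filled in all 8 libraries, and 1 row at Stat5b, 18.0 kb from the start, is filled in the 4 WT libraries and empty in the 4 KO libraries.

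The height of each peak was expressed as summit tags, the number of 200-bp extended cuts stacked at the summit, worked back from the fold and p-value of the lists. The lists held 60363 to 72484 peaks, and the median over the 47499 regions shared by the 8 lists was 57 to 68 tags in KO and 60 to 91 in WT, with the highest value in WT replicate 1_3. Differences between genotypes are therefore given on a log2 scale after each library was centred on its own median, as KO minus WT, and were tested with limma over all 47499 regions. Over the whole genome 3337 regions were lower in KO (7.03%) and 2760 were higher (5.81%). Higher regions were 45.3% of the calls, and 22.8% when libraries were scaled by background depth instead. The start sites of 6 of 8 AM markers were open in every library, those of Chil3 and Krt79 in none. Those of all 5 general macrophage markers were open in every library. No T cell marker of 4 had an open start site, but 2 of 3 neutrophil markers (S100a8 and Cxcr2, not Ly6g), 1 of 4 epithelial markers (Scgb1a1), 2 to 3 of 3 monocyte, 0 to 1 of 4 B cell and 1 to 2 of 3 endothelial markers did. At the deleted genes, 1 of 16 regions in Rxra had a peak in the 4 WT libraries and none in KO. In limma 0 Rxra regions were lower in KO and 1 was higher, and the lowest Rxra difference was -0.06. The single region in Rxrb did not have peaks in WT alone in this way. It lacked a peak in some library, so limma did not test it. In bulk chromatin, fewer open cells and less opening per cell cannot be told apart.

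Most regions at the GM-CSF receptor and STAT5 genes had peaks in both genotypes. Peaks in all 8 libraries were found at 36 of the 48 regions, and at 47499 of the 72711 such regions of the genome. Occupancy per library was not computed over all regions, so it is given as description. KO libraries had a peak at 40, 41, 44 and 43 of the 48 regions (replicates 1_2, 1_3, 2 and 3), and WT libraries at 44, 44, 44 and 42 (replicates 1_2, 1_3, 3 and 4). The KO mean was 42.0 ± 1.83 and the WT mean 43.5 ± 1.0 (SD, n = 4), with p = 0.257 in a two-sided exact permutation test whose smallest possible p is 0.0286. In lists cut to equal length both means were 40.8. Of the 36 regions tested, 1 was higher in KO (Jak2 start site), 1 was lower (Stat5a upstream start site) and 34 did not pass (limma, Benjamini-Hochberg adjusted p under 0.05). Together these are 5.56% of the regions tested, and 12.8% of all regions passed. At an unadjusted p under 0.05 there were 7, but the share of all regions at that threshold was not computed, so this count has no comparison. The log2 differences ran from -0.39 to 0.36 with a median standard error of 0.14, and their median was 0.08, against 0.04 over all regions tested. By value 23 of the 36 were higher in KO (63.9%), against 57.6% of all regions tested.

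After scaling, all 4 KO libraries were below all 4 WT libraries at 1 of the 36 regions (7.91% over all regions) and above them at 2 (8.25% over all regions). The one below was the Stat5a upstream start site, and those above were 12.2 kb and 1.51 kb from the Jak2 start. Distances from a start are to the nearest annotated start of that gene, which can be internal. By occupancy, 1 of the 48 regions had a peak in all 4 WT libraries and no KO library, against 0.82% of all regions seen in at least 2 libraries. None had the reverse, against 0.285% of all regions.

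**Figure D2:**
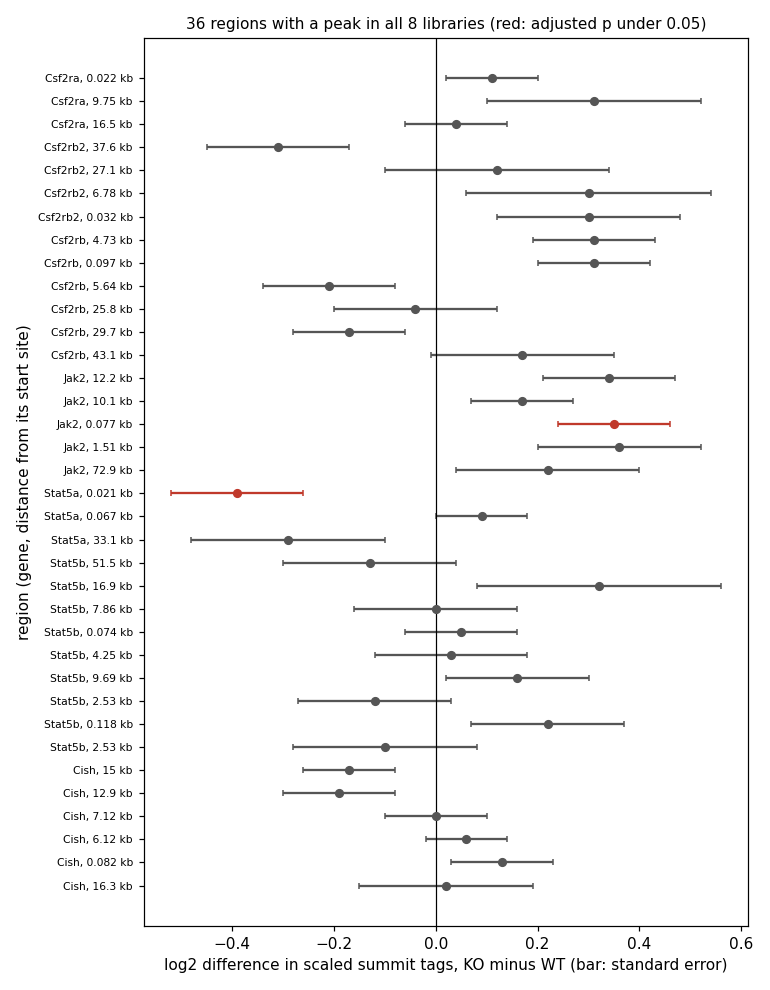
Log2 difference in scaled summit tags, KO minus WT, with its standard error, for the 36 regions tested, grouped by gene and labelled with the distance from that gene's start. The 2 regions in red passed the test, the Jak2 start site at 0.35 and the Stat5a upstream start site at -0.39, and all values lie between -0.39 and 0.36.

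Csf2ra, the alpha chain that gives the receptor its specificity for GM-CSF (ENSMUSG00000059326.7, chr19:61223957-61228429, minus strand), had 3 regions, each open in all 8 libraries. A broad region, chr19:61226931-61228791, covered its outer start and had its summit 1075 bp inside the gene, in a coding exon, 22 bp from an internal annotated start. It held 229, 211, 197 and 171 summit tags in KO and 188, 246, 227 and 206 in WT. The groups overlapped, and the difference was 0.11 ± 0.09 on the log2 scale (SE, adjusted p = 0.452 in limma). The match TTCCGGGAA printed above began 67 bp from this summit, and the RefSeq promoter window at the outer start held none. The region of highest rank within the lists, chr19:61244671-61245305, lay 16.5 kb upstream, outside genes. It had 119, 127, 107 and 105 tags in KO and 120, 152, 130 and 115 in WT, a difference of 0.04 ± 0.1 (adjusted p = 0.827). A weaker region 9.75 kb away held 14 to 22 tags in KO and 15 to 19 in WT, with a difference of 0.31 ± 0.21 (adjusted p = 0.369).

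Csf2rb, the beta chain that carries the signal of GM-CSF, IL-3 and IL-5 (ENSMUSG00000071713.6, chr15:78325752-78353847, plus strand), had 10 regions in its window, 7 of them open in all 8 libraries. The start-site region, chr15:78325626-78326224, was the strongest of both beta chain windows and had its summit 97 bp from the start, in the UTR. It held 141, 114, 148 and 100 tags in KO and 109, 128, 112 and 117 in WT. After scaling the mean was 135 tags in KO (SD 23.8, n = 4) and 109 tags in WT, with overlapping groups. The difference of 0.31 ± 0.11 did not pass the test (adjusted p = 0.0655 in limma). It passed without KO replicate 1_3 (adjusted p = 0.0353), without KO replicate 3 (0.0493) or without WT replicate 4 (0.0123). It passed under no other alternative, among them depth scaling (0.25, adjusted p = 0.558) and leaving out KO replicate 2 (0.2, adjusted p = 0.309). Of its 50-base words, 4.0% occurred elsewhere in the genome.

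An upstream region 4.73 kb before the Csf2rb start, chr15:78320829-78321224, held 101, 80, 82 and 76 tags in KO and 69, 93, 79 and 75 in WT. The difference of 0.31 ± 0.12 did not pass (adjusted p = 0.0818). Among the alternatives it passed only without WT replicate 4 (0.39, adjusted p = 0.0337) and with the replicate name as a block (0.38, adjusted p = 0.0465). It also carried a STAT5 match, TTCAGGGAA, 47 bp from its summit. Inside the gene and beyond it the values pointed in both directions, and none passed. An intronic region 5.64 kb from the start held 78, 58, 65 and 70 tags in KO and 84, 93, 92 and 93 in WT. All raw KO values were below all raw WT values there, but the groups overlapped after scaling and the difference was -0.21 ± 0.13 (adjusted p = 0.327). A region 29.7 kb from the start, beyond the 3′ end, held 69 to 102 tags in KO and 108 to 133 in WT (-0.17 ± 0.11, adjusted p = 0.339). The outermost one, 43.1 kb from the start, held 28 to 33 tags in KO and 26 to 33 in WT (0.17 ± 0.18, adjusted p = 0.605).

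Csf2rb2, the beta chain used by IL-3 in mice (ENSMUSG00000071714.7, chr15:78282507-78305721, minus strand), had 8 regions, 6 of them open in all 8 libraries. Its start-site region, chr15:78305248-78306037, had its summit 32 bp from the start, in the UTR. It held 53, 61, 31 and 32 tags in KO and 32, 57, 35 and 40 in WT. KO replicates 1_2 and 1_3 were above KO replicates 2 and 3, the WT values spanned nearly the same range, and the difference of 0.3 ± 0.18 did not pass (adjusted p = 0.3). A second start-site region, chr15:78304887-78305133, lay 0.719 kb inside the gene and 0.62 kb from its nearest annotated start. It had a peak of 16 tags in KO replicate 1_3 and of 23 in KO replicate 2, and none elsewhere. By value 5 of the regions tested in this window were higher in KO and 1 was lower. The lower one, chr15:78267808-78268237, lay beyond the 3′ end, 37.6 kb from the start. It held 50, 61, 43 and 45 tags in KO and 64, 89, 61 and 73 in WT (-0.31 ± 0.14, adjusted p = 0.161 in limma).

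The intronic region of Csf2rb2 that carries TTCAGAGAA, chr15:78298650-78299016, lay 6.78 kb from the start. It is named for its spread, after its values were seen. It held 34, 41, 15 and 16 tags in KO and 15, 35, 16 and 31 in WT, so that high and low libraries occurred in both genotypes. The difference was 0.3 ± 0.24 (adjusted p = 0.457), and 0.74 (adjusted p = 0.0411) in the 6 libraries left without KO replicate 2 and WT replicate 4. The residual SD between libraries of a genotype was 0.616 on the log2 scale, and 12 of the 47499 regions tested had a larger one, with a median of 0.18. The matching intron of Csf2rb, chr15:78334441-78334744, had no peak in KO replicate 3, 41, 45 and 20 tags in the other KO libraries, and 26, 36, 32 and 37 tags in WT. Of the 50-base words of these regions, 14.8% and 18.4% occurred elsewhere in the genome, and reads from such words can be lost to a mapping quality filter or placed on the wrong copy. Their part in the spread was not tested.

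**Figure D3:**
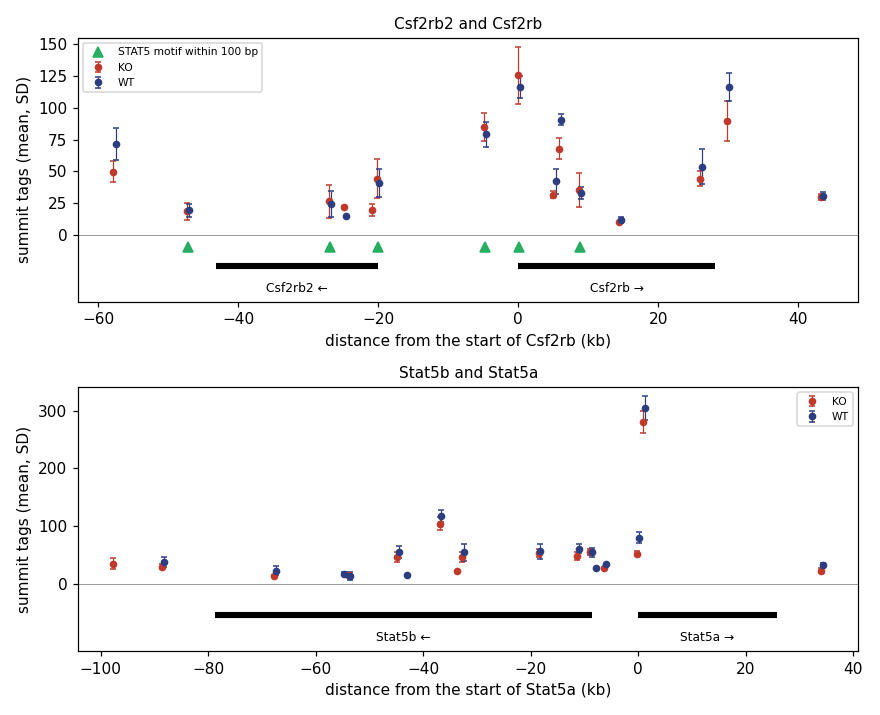
Mean summit tags (unscaled, bars SD over the libraries with a peak) in KO and WT against distance from the start of Csf2rb (top) and of Stat5a (bottom), with gene bodies as black bars and green triangles under regions with TTCNNNGAA within 100 bp of the summit. The beta chain locus carries 6 triangles and the Stat5 locus carries none, and the tallest point is the second Stat5a start site, at 280 tags in KO and 304 in WT.

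Jak2, the kinase bound to the beta chain (ENSMUSG00000024789.13, chr19:29251828-29313080, plus strand), had the only region that passed the test as higher in KO. Its start-site region, chr19:29251120-29252005, held 151, 123, 138 and 138 tags in KO and 135, 132, 127 and 106 in WT. Scaled to a common median, the KO libraries averaged 148 ± 17.1 tags and the WT libraries 116 ± 13.4 (SD, n = 4), 1.27-fold higher in KO, with the lowest KO library (124) under the highest WT library (131). The log2 difference was 0.35 ± 0.11 (SE, adjusted p = 0.0187 in limma). It was no longer called with depth scaling (0.3, adjusted p = 0.408), without KO replicate 2 (0.0606), without KO replicate 3 (0.0875) or without WT replicate 1_3 (0.0935). The stretch of this promoter before the start, chr19:29251683-29251802 on the plus strand, is printed because it holds the summit, 77 bp upstream, marked by capitals.
Jak2 upstream: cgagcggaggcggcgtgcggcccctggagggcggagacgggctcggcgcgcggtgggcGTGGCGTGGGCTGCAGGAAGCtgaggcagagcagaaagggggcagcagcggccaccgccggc

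The other Jak2 regions had values in the same direction, none of which passed. The strongest, chr19:29241510-29241954, lay 10.1 kb upstream with 2 AP-1 matches and held 151, 155, 146 and 163 tags in KO and 179, 167, 159 and 132 in WT (0.17 ± 0.1, adjusted p = 0.284). A region 12.2 kb upstream held 70, 81, 83 and 70 tags in KO and 71, 78, 69 and 60 in WT (0.34 ± 0.13, adjusted p = 0.0697). An intronic region 1.51 kb from the start held 43, 50, 49 and 43 tags in KO and 40, 56, 42 and 32 in WT (0.36 ± 0.16, adjusted p = 0.13). After scaling, the KO libraries at both of these were above every WT library. The last region of the window, at the start of the neighbouring gene Insl6, differed by 0.22 ± 0.18 (adjusted p = 0.487).

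Stat5a, one of the pair of STAT5 transcription factors (ENSMUSG00000004043.14, chr11:100859351-100885169, plus strand), had an open region at each of 2 start sites. The upstream one, chr11:100859201-100859523, with its summit 21 bp from the start in the 5′ UTR, was the only region that passed the test as lower in KO. It held 57, 54, 50 and 48 tags in KO and 69, 89, 86 and 75 in WT, so that the groups did not overlap. The scaled KO mean was 56.2 ± 1.11 and the scaled WT mean 74.1 ± 9.09 (SD, n = 4), so that KO stood at 0.763 of the WT level. The log2 difference was -0.39 ± 0.13 (SE, adjusted p = 0.047 in limma). The call was close to the threshold and was kept under 6 of 17 alternatives, with adjusted p from 0.0436 to 0.2, while the difference stayed between -0.44 and -0.32. The bases before this start, chr11:100859231-100859350 on the plus strand, are printed because this is the Stat5a region that passed the test, with capitals on those next to the start.
Stat5a upstream: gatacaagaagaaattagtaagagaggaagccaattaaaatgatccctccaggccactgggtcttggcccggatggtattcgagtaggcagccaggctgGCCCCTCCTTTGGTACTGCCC

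The second Stat5a start site, chr11:100860129-100860779, was the strongest region at any of the 7 genes. It held 303, 282, 276 and 257 tags in KO and 291, 326, 283 and 317 in WT, with a mean rank at percentile 96.7 of the lists. The groups overlapped, and the difference was 0.09 ± 0.09 (adjusted p = 0.548). The remaining region of its own window, in an intron of the neighbouring Stat3, held 19 to 28 tags in KO and 29 to 37 in WT (-0.29 ± 0.19, adjusted p = 0.361). Whether the 2 start sites differ from each other in their response was not tested.

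Stat5b, the second STAT5 factor (ENSMUSG00000020919.11, chr11:100780731-100850724, minus strand), had 17 regions in its window, 11 of them open in all 8 libraries. Of its own start sites, the region chr11:100850233-100850908, with its summit 118 bp from the start, held 47, 58, 60 and 55 tags in KO and 50, 53, 66 and 50 in WT (0.22 ± 0.15, adjusted p = 0.372). An internal start site, chr11:100822376-100822815, held 108, 105, 116 and 88 tags in KO and 102, 126, 123 and 117 in WT (0.05 ± 0.11, adjusted p = 0.841). Both were open in every library with overlapping groups. A further one, chr11:100851231-100851431, had a peak of 27 tags in WT replicate 4 only.

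One intronic region of Stat5b, chr11:100804418-100804800, 18.0 kb from the nearest start, had a peak in all 4 WT libraries and in none of the 4 KO libraries. Its WT peaks were low, at 16, 22, 16 and 18 tags (mean 18.0 ± 2.83), against a smallest listed peak of 6 to 9 tags in each library, and stood at percentile 22.6 of the lists. A missing peak says that the threshold was not reached, and no tag number is known for KO. An intronic neighbour 16.9 kb from the start held 19, 10, 15 and 15 tags in KO and 10, 23, 17 and 8 in WT, with overlapping groups (0.32 ± 0.24, adjusted p = 0.409). The region without KO peaks held none of the 4 patterns within 100 bp of its summit. The bases around that summit, chr11:100804498-100804648 on the plus strand, are printed because no other region had peaks in all 4 libraries of one genotype and none of the other, with capitals around the summit.
Stat5b intron: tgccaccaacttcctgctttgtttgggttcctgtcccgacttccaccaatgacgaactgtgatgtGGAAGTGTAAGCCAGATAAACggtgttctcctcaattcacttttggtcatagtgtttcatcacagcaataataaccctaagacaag

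At the other end of the Stat5b window, a region in a coding exon of Hcrt, 18.7 kb beyond the gene body, had no peak in KO replicate 1_2 or in any WT library, and peaks of 38, 43 and 24 tags in the other KO libraries. Just outside the limit, 20.5 kb from the gene body, a region held 77, 66, 68 and 62 tags in KO and 133, 102, 122 and 104 in WT, with a log2 difference of -0.53 that passed the test over all regions (adjusted p = 0.00308). For the other genes, the outermost region inside the limit lay 11.9 kb (Jak2) to 19.9 kb (Csf2rb2) from the gene body. The first outside lay 20.6 kb (Csf2rb) to 23.9 kb (Csf2ra) away. The regions beyond the limit of Csf2rb, Csf2rb2 and Jak2 had peaks in at most 2 libraries, and those of Csf2ra, Stat5a and Cish were open in all 8, with log2 differences of 0.22, -0.36 and -0.22.

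**Figure D4:**
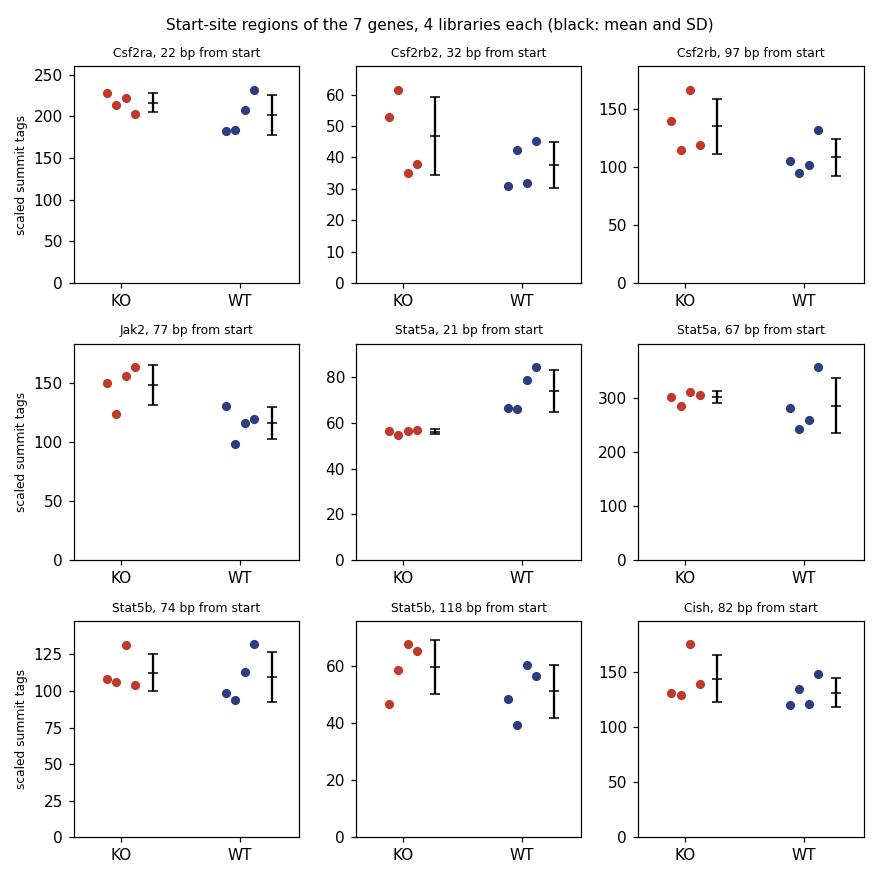
Scaled summit tags at the 9 start-site regions open in all 8 libraries, each point 1 library, with mean and SD in black; titles give the distance of the summit from the nearest annotated start of the gene, and axes begin at 0. KO and WT points separate fully only at the Stat5a region 21 bp from its start, with means of 56.2 and 74.1 tags.

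Cish, the feedback inhibitor that STAT5 switches on (ENSMUSG00000032578.7, chr9:107296026-107302784, plus strand), had 10 regions, 6 of them open in all 8 libraries, and none passed the test. Its start-site region, chr9:107295967-107296998, had its summit 602 bp inside the outer start and 82 bp from a second annotated start. This region, with the pair of STAT5 matches printed above starting 31 bp from the summit, held 132, 128, 155 and 117 tags in KO and 124, 180, 132 and 131 in WT. The highest library was WT replicate 1_3, which also had the most tags over all regions. The scaled KO mean was 144 ± 21.2 and the scaled WT mean 131 ± 13.1 (SD, n = 4), with overlapping groups and a difference of 0.13 ± 0.1 (adjusted p = 0.45 in limma). A small region 0.243 kb before the start (chr9:107295574-107295884) had no peak in KO replicate 2, 40, 31 and 24 tags in the other KO libraries, and 38, 43, 33 and 34 tags in WT.

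Downstream of Cish, a pair of regions outside genes carried a STAT5 match. The one 11.3 kb from the start, with TTCCAAGAA 81 bp from its summit, had peaks of 20 and 23 tags in KO replicates 2 and 3 and of 30, 18 and 13 tags in WT replicates 1_3, 3 and 4. The one 16.3 kb from the start, with TTCCCAGAA 54 bp from its summit, held 54, 38, 68 and 43 tags in KO and 46, 56, 72 and 55 in WT (0.02 ± 0.17, adjusted p = 0.949). Neither separated the genotypes. The strongest region in the Cish window, chr9:107289374-107290088, was the start site of the neighbouring gene Mapkapk3, with 297, 261, 268 and 243 tags in KO and 279, 334, 298 and 278 in WT (0.06 ± 0.08, adjusted p = 0.688).

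Around these 7 genes, 33 other genes of the pathway were examined in the same way: the ligands, related receptor chains, other JAKs, STATs and SOCS inhibitors, phosphatases and adaptors, and textbook STAT5 targets. Their windows held 360 regions that were not at the 7 genes, of which 235 were tested. In limma 20 rose in KO (8.51%, against 5.81% of all regions) and 6 fell (2.55%, against 7.03%). With depth scaling 4 of the 20 and all 6 were still called, and with quantile normalisation 17 and 6. Of the 33 genes, 11 had a region that rose, 3 had one that fell, and 2 of these had both, while 21 had neither. These gene counts depend on the regions tested per gene, such as 22 at Gab2 and 2 at Stat4. No share over all genes was computed to set beside them. The median log2 difference was 0.07.

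Among the SOCS inhibitors, the family of CIS, 7 of 38 regions rose and none fell, with a median of 0.14. Over all regions tested, 5.81% rose and 7.03% fell. Socs3, the inhibitor of gp130 and G-CSF receptor signalling, had 5 of them. The largest, 5.62 kb from its start, held 179, 147, 140 and 133 tags in KO and 88, 105, 93 and 74 in WT, so that every KO library was above every WT library (0.95 ± 0.10, adjusted p = 2.32e-09). Its start-site region held 223, 198, 223 and 175 tags in KO and 142, 170, 155 and 149 in WT (0.62 ± 0.10, adjusted p = 5.19e-06). Both were called under all 14 alternatives run for this list, and they were the only SOCS calls kept with depth scaling. The remaining 3, 22.4, 14.9 and 10.3 kb from the start, were called under 13, 7 and 6 of the 14. The last of them lay nearer to the start of Pgs1, 6.76 kb away. The Socs2 start site (0.30, adjusted p = 0.0416) was called under 4 of 14, and a region 48.5 kb from the Socs6 start (0.55, adjusted p = 0.00432) under 13.

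Of 41 regions at the textbook STAT5 targets, 1 rose and 3 fell, with a median of 0.02. The shares over all regions tested were 5.81% and 7.03%. The region that rose was the start site of Pim1, a survival kinase gene, with 292, 284, 238 and 247 tags in KO and 238, 210, 240 and 240 in WT (0.40 ± 0.10, adjusted p = 0.00388), and it lost its call with depth scaling (0.232). The 3 that fell lay downstream of Osm, which encodes the cytokine oncostatin M, and their nearest start is that of Lif, a cytokine gene of the same family. The one 0.297 kb from the Lif start held 42, 29, 32 and 27 tags in KO and 101, 96, 123 and 77 in WT, with no overlap (-1.38 ± 0.15, adjusted p = 3.27e-09). The others differed by -0.58 and -0.43, and all 3 were called under all 14 alternatives. Bcl2l1 and Ccnd2 had no region that passed.

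Of 22 regions at the other JAKs, 2 rose and 1 fell, all in the window of Jak1, a kinase shared by many cytokine receptors. Among all regions tested, 5.81% rose and 7.03% fell. The rising region 110 kb from the Jak1 start lay nearest to the start of Raver2. The one that fell, 14.7 kb from the Jak1 start, held 122, 97, 103 and 105 tags in KO and 185, 202, 167 and 132 in WT, with no overlap (-0.46 ± 0.10, adjusted p = 0.00131), and was called under all 14 alternatives. Jak3 and Tyk2 had no region that passed. Both calls in the window of Stat6, the factor used by IL-4, rose, lay nearest to the start of Nemp1 and were called under 13 of 14.

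Of 99 regions at phosphatases and adaptors 7 rose and 2 fell, where 5.81% of all regions tested rose and 7.03% fell. Gab2, a docking protein, had 4 that rose, of which the one 54.8 kb from its start (0.75 ± 0.16, adjusted p = 0.000713) was called under all 14 alternatives. The Gab2 region 189 kb from its start lay nearest to the start of Usp35. The window of Lyn, a Src family kinase that binds the beta chain, had 1 that rose and 2 that fell (-0.63 and -0.56). The latter were 124 and 126 kb from the Lyn start and nearest to that of Rps20, and the former was nearest to that of 2210414B05Rik. Ptpn11 and Grb2 had 1 each that rose, called under 13 and 6 of the 14. Of the related receptor chains 1 of 11 regions rose, in the Il5ra window at the start site of Trnt1 (0.28, adjusted p = 0.0452), called under 5 of 14. Of the ligands Csf2, Il3 and Il5, 3 regions were tested, all at Il5, and none passed.

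**Figure D5:**
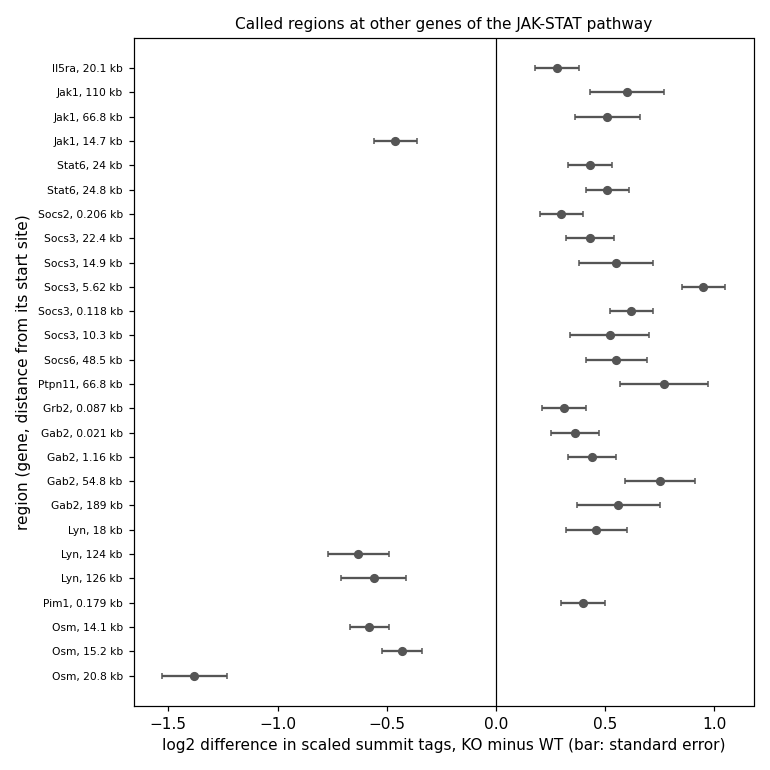
Log2 difference in scaled summit tags, KO minus WT, with its standard error, for the 26 regions that passed the test at the other pathway genes, labelled with the distance from that gene's start. Socs3 (5 regions, up to 0.95) and Gab2 (4 regions) lie to the right of 0, and the 3 regions in the Osm window lie to the left, down to -1.38.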

How the data were processed

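ATAC-seq was made on 4 KO and 4 WT libraries, grouped by the labels' genotype and title. The methods state that the authors used Cutadapt for trimming and Bowtie2 for alignment (mm10), filtered out duplicates and pairs of low mapping quality, and ran MACS3 on each library with cuts extended to 200 bp. They tested accessibility on read counts with edgeR, which was not used here because the lists hold no read counts. The deposited lists give, per peak, the fold (a ratio of pileup to local background), the −log10 p and −log10 q, the summit, and a display score that was not used. A deposited list holds only peaks with q under 0.05, so an absent peak is not a 0.

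Summit tags were worked back from the deposited fold and −log10 p with MACS3's Poisson model, and gave back 100% of the p-values within a relative error of 1e-05. The lists were not made for comparing heights between libraries. Peaks were merged over the 8 libraries where they shared a base and annotated with GENCODE M21. log2(tags + 0.5), centred on each library's median, was compared with limma (trended variance, Benjamini-Hochberg over all 47499 regions). In data simulated for these regions, 92.5% of 200 changes of 2-fold were called. The simulated spread was set beforehand, equal for every region and not estimated from these libraries, so this share is not the power of these data. The differences at the GM-CSF receptor and STAT5 genes were smaller than 2-fold, from -0.39 to 0.36 on the log2 scale. The share called at such sizes was not examined, so regions that did not pass are not shown to be unchanged. A start-site region had its strongest summit within 1 kb of a start of the gene. Named were, per gene, these regions, the region of highest mean rank, those passing the test, those with peaks in 4 libraries of one genotype and at most 1 of the other, those at Cish with a STAT5 match, and those at the 20 kb limit. Values of other regions and of the pathway list were added as description, and 1 gene of that list is not reported here. Alternatives were other scalings, pseudocounts, filters and overlaps, and leaving out each library. Members and lists were chosen with earlier results of these data known.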

Additional observations from a re-analysis of the deposited data

Results flagged for a closer look

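Among 74 groups of 4 libraries (the scaled tags of the 36 regions in each genotype, and the regions occupied per library), 2 had a library far from the other 3. The gap to the nearest library, as a share of the group's range, had to exceed Dixon's critical value for 4 values, and chance alone flags about 1 in 20 groups. At the internal Stat5b start site, the region beginning at chr11 position 100822376, KO replicate 2 stood above the other KO libraries with a ratio of 0.87. In the number of regions with a peak, WT replicate 4 had 42 and the other WT libraries had 44 each, a ratio of 1.0.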

How the results depend on the processing

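Against 2 calls (Jak2 start site higher, upstream Stat5a start site lower), depth scaling gave 0, and quantile normalisation and averaging of replicates 1_2 and 1_3 gave 1, the Jak2 start site. Leaving out 1 library gave 0 to 3: 0 without KO replicate 2, the Csf2rb start site alone without KO replicate 3, the Stat5a region alone without WT replicate 1_3, and the Jak2 start site alone without WT replicate 3. Without KO replicate 1_2, KO replicate 1_3 or WT replicate 4 all calls were higher in KO, the Stat5a call was lost, and the Jak2 region 12.2 kb upstream, the Csf2rb start site, or that site and the region 4.73 kb before it joined the Jak2 start site. With the replicate name as a block over replicates 1_2, 1_3 and 3, 4 were called, all higher in KO: the Csf2rb2 start site (0.51, adjusted p = 0.0412) and intron, the region before Csf2rb and the Jak2 start site. The same 6 libraries with no block gave 2, the Csf2rb2 intron and the Jak2 start site, a setting chosen after seeing the data. Deviations of same-named libraries correlated at 0.0555, 0.116 and 0.0368, and those of differently named libraries at -0.0673 to 0.0322. The same-named values were small but above all the others, and whether the names mark a shared factor was not tested. The main fit took no pairs. Over all regions the block gave 3598 higher and 3291 lower, against 2510 and 2763 in the same 6 libraries with no block. The block gave a mean difference of -2.67 regions occupied per library (exact sign permutation p = 0.25, the smallest that 3 pairs allow). Regions seen in all libraries of one genotype alone numbered 2 in place of 1 with replicates 1_2 and 1_3 as 1 sample, and 1 to 2 when 1 library was left out (2 without KO replicate 1_2). The median difference of 0.08 was 0.02 with depth scaling, 0.04 with quantile normalisation and 0.04 to 0.12 when 1 library was left out, each within 1 SD between libraries. Signs were followed only for the tested start-site regions, the strongest regions, those called and those at Cish with a STAT5 match. Among these, signs turned only where the difference was near 0. The internal Stat5b start site went to -0.01 with depth scaling, -0.03 to 0.14 when 1 library was left out (-0.02 without WT replicate 1_3), the Csf2ra region 16.5 kb upstream to -0.01 with depth scaling, and the Cish region 16.3 kb downstream to -0.03 with depth scaling, -0.15 to 0.18 when 1 library was left out (-0.05 without WT replicate 1_2, -0.09 without WT replicate 1_3) and -0.07 with 6 libraries, with or without the block. The causes were not tested. Low regions are the least certain, since a peak can miss the threshold in a shallower library.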
